A study of Mus musculus with 11 samples.

Results

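Testes of 4 Irp1-/- and 4 wild-type (WT) mice were compared by bulk RNA sequencing, and the genes of chromosome 4, which carries the targeted gene Aco1, were separated from the genes of all other chromosomes. These 8 samples are part of a set of 11, whose other 3 came from mice with a global knockout of Ireb2 (Irp2_KO) and serve here only as a reference in which Aco1 was not targeted. Irp1-/- mice were global knockouts for Aco1 that carried the Aco1tm1Roua allele on a C57Bl/6J background. By the study's methods their WT controls were littermates from crosses of heterozygous parents. All mice were males aged 20 weeks, received no treatment, and gave RNA of the whole decapsulated testis, so germ cells and somatic cells were measured together and fewer cells of a type cannot be told apart from less RNA per cell. Of the 24411 genes in the count table, 16002 passed the filter on low counts and were tested, 1013 of them on chromosome 4. Total counts per sample lay between 15902473 and 22451417 in Irp1-/- testes and between 16358055 and 18257228 in WT testes. Every pair of replicates of a genotype differed by more than counting noise (chi-square over degrees of freedom 1.97 to 4.75).

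Irp1 is a protein with a pair of functions. With an iron-sulfur cluster it is the cytosolic aconitase, which converts citrate to isocitrate. Without the cluster it binds iron-responsive elements in mRNAs, where it slows translation of ferritin and ferroportin mRNA and stabilizes the mRNA of transferrin receptor. Irp2, encoded by Ireb2, binds the same elements and has no aconitase activity. In the testis, iron is delivered to germ cells across the Sertoli cell barrier and is needed for DNA synthesis, for heme and for the mitochondria of maturing spermatids.

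Expression is given as TMM-scaled counts-per-million values (CPM). A gene was called changed at an adjusted p under 0.05 in edgeR's quasi-likelihood test with Benjamini-Hochberg adjustment over all 16002 genes. In Irp1-/- against WT testes 164 genes were called (1.02%), of which 93 were higher (0.581%) and 71 lower (0.444%). At an unadjusted p under 0.05 the number was 1941 (12.1%). The 4 Irp1-/- values lay entirely above or below the 4 WT values in 1061 genes (6.63%). Chromosome 4 held 26 of the called genes, 2.57% of its tested genes, and the other 138 were 0.921% of the genes tested elsewhere. Genes counted as elsewhere take in 57 tested genes that could not be given a chromosome. Besides chromosome 4, the X chromosome stood above the share over all genes, with 19 called of 694 tested (2.74%), and the Y chromosome held 3 called of 35 tested (8.57%). The number called was 55 without Irp1-/- replicate 1, 102 without Irp1-/- replicate 6, 84 without WT replicate 2 and 106 without WT replicate 4. The other autosomes lay between 0.179% (chromosome 12) and 1.7% (chromosome 14).

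**Figure D1:**
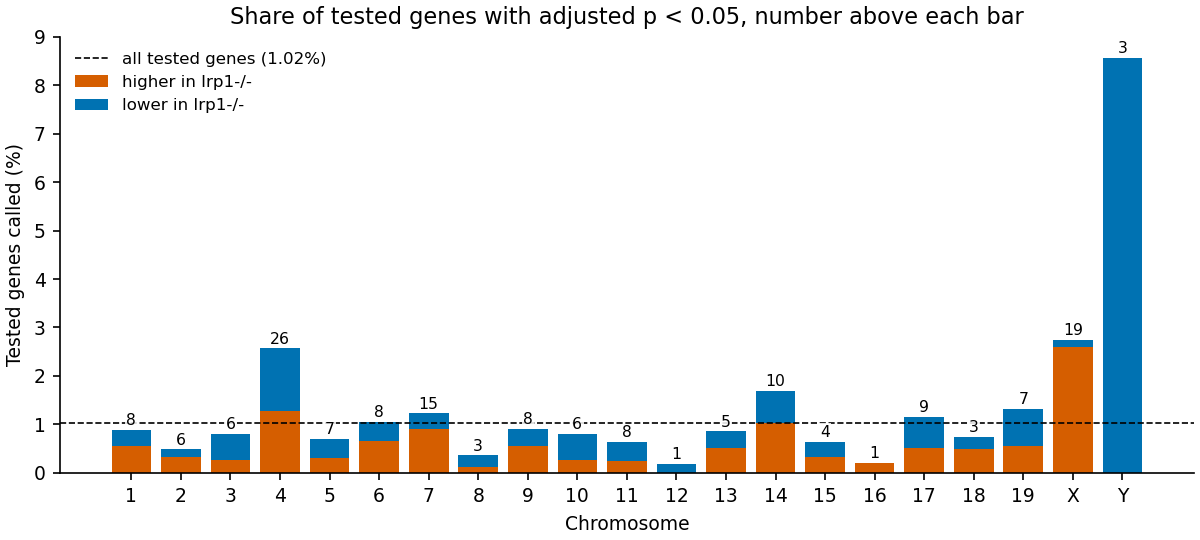
Bars show the percentage of tested genes on each chromosome with an adjusted p under 0.05 in Irp1-/- against WT testes, split into genes higher and genes lower in Irp1-/-, with the number of called genes above each bar. Chromosome 4 (26 genes), X (19 genes) and Y (3 genes) rise furthest above the dashed line at 1.02%, the share over all tested genes.

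Aco1 itself, at chr4:40143265-40199009 of mm10 (GRCm38), was measured first as a check of the genotypes. It had 9.08, 9.10, 7.91 and 8.16 CPM in Irp1-/- replicates 1, 2, 6 and 7 and 9.76, 12.4, 12.03 and 12.9 CPM in WT replicates 1 to 4. All 4 Irp1-/- values were below all WT values, but the gap between the highest Irp1-/- and the lowest WT value was small. The means were 8.56 ± 0.615 and 11.8 ± 1.37 CPM (SD, n = 4 each), so counts on Aco1 remained at 72.9% of the WT level (log2 fold change -0.45, SE 0.098, adjusted p = 0.0158, edgeR). The call was kept in 4 of the 8 fits that left out 1 sample and lost without replicate 6 of Irp1-/- and without replicate 2, 3 or 4 of WT, with an edgeR adjusted p of up to 0.0750. In Irp2_KO testes Aco1 had 11.8 ± 1.68 CPM (SD, n = 3). Counts are summed over the whole gene, so any altered transcripts of the targeted allele add to the Irp1-/- level. They cannot show whether the remaining transcripts encode a working protein, and so do not establish the knockout by themselves.

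Within chromosome 4 the called genes were grouped by their distance from Aco1, in windows that were chosen after the positions had been seen. The distance runs between the nearest ends of the 2 genes. Within 10 Mb of Aco1, itself included, 9 of 153 tested genes were called (5.88%), between 10 and 20 Mb 5 of 63 (7.94%), and between 20 and 40 Mb 10 of 101 (9.9%). At 40 Mb or more 1 of 693 was called (0.144%). The exception was Fabp3, 90.1 Mb away. This last count was 8 without Irp1-/- replicate 7, 4 without Irp1-/- replicate 2, 2 without WT replicate 1, 0 without Irp1-/- replicate 1 and 0 without WT replicate 2. The count within 40 Mb was 16 without Irp1-/- replicate 1 and between 17 and 25 without any other sample. Another called gene, 4933409K07Rik, belongs to chromosome 4 sequence with no place in the assembled chromosome and has no distance. Directions were mixed, with 13 genes higher (1.28%) and 13 lower (1.28%) over the whole chromosome. In all 26 genes the Irp1-/- and WT samples did not overlap, against 7.6% of all genes tested on chromosome 4. The calls were made on these same values, which favours such separation. The median absolute log2 fold change of the 26 genes was 0.47, against 0.30 in the called genes elsewhere. Of the 26, 12 exceeded 0.5 in size, against 22 of the 138 elsewhere. Leaving out any 1 of the 8 samples kept 15 of the 26 calls in every fit, and 31 of the 138 elsewhere. Without Irp1-/- replicate 1 the number on chromosome 4 was 17.

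The comparison of Irp2_KO with WT testes, which shares the WT samples, had 196 called genes of 16154 (1.21%), 0.371% higher and 0.842% lower in Irp2_KO. By the same windows its own calls were 0 of 156, 0 of 63, 3 of 101 and 15 of 702 genes from the nearest to the farthest. In Irp1-/- against Irp2_KO testes, where 763 of 16281 genes were called (4.69%; 2.92% higher and 1.76% lower in Irp1-/-), the own calls by window were 14 of 155, 10 of 63, 9 of 102 and 44 of 706. A targeted allele is inherited together with the sequence linked to it, so in the Irp1-/- mice a change that follows from loss of Irp1 and one that follows from linked sequence around Aco1 cannot be told apart.

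**Figure D2:**
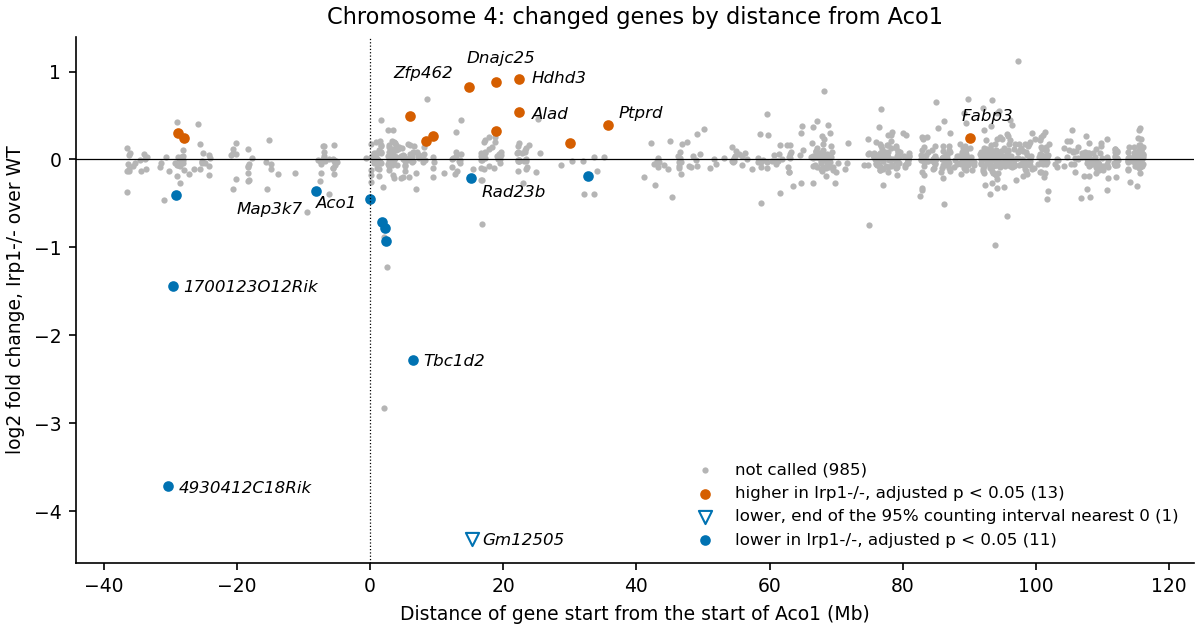
Each point is a tested gene with a place on chromosome 4, plotted by the distance of its start from the start of Aco1 (Mb) and its log2 fold change in Irp1-/- over WT testes. The open triangle marks Gm12505 at the end of its counting interval that lies nearest to 0, and the dotted line marks Aco1. The coloured points, which are the called genes, gather within 40 Mb on both sides of Aco1, and Fabp3 is the only one beyond.

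The largest fold changes on chromosome 4 were losses. Tbc1d2, which encodes a GTPase-activating protein for Rab GTPases and lies 6.41 Mb from Aco1, had 4.75, 4.66, 4.73 and 4.33 CPM in Irp1-/- and 26.1, 22.9, 20.4 and 20.7 CPM in WT replicates. Every Irp1-/- testis was thus far below every WT testis, with means of 4.62 ± 0.194 and 22.5 ± 2.61 CPM (SD, n = 4 each; log2 fold change -2.28, SE 0.096, adjusted p = 1.70e-15, edgeR). In Irp2_KO testes its level was 21.5 ± 1.76 CPM (SD, n = 3). The other 3 of these genes are long noncoding RNAs of low level. Gm12505 had 1 count in all Irp1-/- libraries together, with 3 libraries at 0, and 102 counts over the WT libraries. Scaled for depth, WT over Irp1-/- was a ratio of 114, with an exact 95% counting interval of 19.9 to 4530 that covers counting error only and holds if the table has counts of whole reads. 4930412C18Rik had 0.104 to 0.199 CPM in Irp1-/- and 1.79 to 2.55 CPM in WT samples (log2 fold change -3.72, adjusted p = 1.28e-08, edgeR), with at most 4 counts in any Irp1-/- library. The neighbouring 1700123O12Rik had 2.15 to 2.56 against 5.69 to 6.88 CPM (log2 fold change -1.44, adjusted p = 7.76e-08, edgeR). In Irp2_KO testes 4930412C18Rik had 0.975 to 1.53 CPM, all below the WT values, without passing the test against WT (log2 fold change -0.82, adjusted p = 0.114, edgeR). There 1700123O12Rik and Gm12505 had 5.19 ± 0.684 and 1.03 ± 0.349 CPM (SD, n = 3 each).

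Several genes 14.7 to 22.3 Mb from Aco1 were higher. Zfp462, a zinc finger protein of chromatin, had 30.99, 27.3, 31.2 and 28 CPM in Irp1-/- and 16.3, 17.3, 15.9 and 16.6 CPM in WT replicates. The groups were well apart, with means of 29.4 ± 2.03 and 16.5 ± 0.608 CPM (SD, n = 4 each; log2 fold change 0.83, SE 0.066, adjusted p = 3.02e-09, edgeR). Dnajc25, a member of the DnaJ co-chaperone family, rose from 7.07 ± 0.862 to 13.1 ± 1.35 CPM (log2 fold change 0.88, SE 0.10, adjusted p = 3.32e-06, edgeR). Gng10, a G protein gamma subunit whose gene lies next to Dnajc25, rose from 12.7 ± 0.871 to 15.9 ± 1.33 CPM (log2 fold change 0.33, adjusted p = 0.0473, edgeR), and this call was kept only in the fit without Irp1-/- replicate 6, with an adjusted p of up to 0.223. Alad, the second enzyme of heme synthesis, had 34.8, 33.9, 28.1 and 30.8 CPM in Irp1-/- and 20.9, 23.4, 21.6 and 22.4 CPM in WT, with no overlap and an Irp1-/- mean at 145% of WT (log2 fold change 0.53, SE 0.067, adjusted p = 1.49e-05, edgeR). Its neighbour Hdhd3, a hydrolase of the haloacid dehalogenase group, was higher as well, at 2.38 to 3.08 against 1.32 to 1.55 CPM (log2 fold change 0.91, adjusted p = 0.00972, edgeR). Gng10 and Hdhd3 were chosen after their values had been seen. In Irp2_KO testes Zfp462, Dnajc25 and Alad had 16.7 ± 1.04, 7.76 ± 0.554 and 22.3 ± 2.42 CPM (SD, n = 3 each).

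Smaller changes were found in Map3k7, Plekhf2 and Ints8, on the other side of Aco1. Map3k7 encodes TAK1, a kinase that relays inflammatory and TGF-beta signals, and had 45.8, 46.9, 50.7 and 50.2 CPM in Irp1-/- against 61.2, 60.1, 66.5 and 60.1 CPM in WT (log2 fold change -0.36, SE 0.050, adjusted p = 9.00e-05, edgeR). Plekhf2, an endosomal phosphoinositide-binding protein, fell from 22.4 ± 2.25 to 16.9 ± 0.934 CPM (log2 fold change -0.41, adjusted p = 0.00391, edgeR). Ints8, a subunit of the Integrator complex that processes small nuclear RNAs, rose from 29.6 ± 0.464 to 36.6 ± 1.56 CPM (log2 fold change 0.30, adjusted p = 0.00194, edgeR). The groups did not overlap in any of these 3 genes. Of the nucleotide excision repair factors on this chromosome, Rad23b, a partner of the damage sensor XPC, was lower at 344, 362, 362 and 370.3 CPM against 437, 424, 409 and 396 CPM (log2 fold change -0.21, SE 0.039, adjusted p = 0.00408, edgeR). Xpa, which verifies the lesion in the same pathway, was higher at 6.68, 7.08, 7.22 and 7.28 CPM against 4.97, 4.97, 5.73 and 4.42 CPM (log2 fold change 0.49, SE 0.11, adjusted p = 0.0258, edgeR). The groups stood apart in both. The call of Rad23b was lost without Irp1-/- replicate 1 (adjusted p = 0.0510), and that of Xpa was lost when replicate 1 or 6 of Irp1-/- or replicate 2 or 4 of WT was left out (up to 0.108, edgeR). Farther out, and chosen after their values had been seen, the receptor phosphatase gene Ptprd had 16.5 to 17.6 against 11.3 to 14.1 CPM (log2 fold change 0.40, adjusted p = 0.00945, edgeR) and the centrosomal gene Cdk5rap2 344 to 391 against 312 to 335 CPM (log2 fold change 0.19, adjusted p = 0.0143, edgeR). Ptprd lost its call without replicate 1 of Irp1-/- and without replicate 2 of WT (up to 0.0551), and Cdk5rap2 without replicate 1 or 6 of Irp1-/- and without replicate 3 or 4 of WT (up to 0.0683). Fabp3, a fatty acid-binding protein of muscle and testis, had 75.4 to 82.1 against 59.9 to 69.5 CPM (log2 fold change 0.24, adjusted p = 0.00822, edgeR), and its call was lost without Irp1-/- replicate 1 or WT replicate 2 (up to 0.0740).

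Gm20878, Gm21586 and Fam205a2, members of duplicated gene families that lie close to Aco1, were each lower. Gm20878 and Gm21586, 1.74 and 2.24 Mb away, had 23, 25.4, 25.5 and 25.2 and 22.7, 20.98, 24.4 and 25.6 CPM in the Irp1-/- replicates. In WT replicates their values were 42.2, 39.5, 37.4 and 42.7 and 42.8, 39.6, 37.1 and 40.8 CPM. Summed over both genes, the level was 48.2 ± 2.52 CPM in Irp1-/- and 80.5 ± 4.70 CPM in WT (SD, n = 4 each), or 59.9% of WT. The sum takes in called genes only and carries no test. Fam205a2, in the same stretch and chosen after its values had been seen, had 43.3 to 61.5 against 96.3 to 107 CPM (log2 fold change -0.92, adjusted p = 0.00774, edgeR). 4933409K07Rik, a transcribed pseudogene on chromosome 4 sequence with no known distance from Aco1, had 46.97 to 54.6 against 74.8 to 85.7 CPM (log2 fold change -0.64, adjusted p = 3.02e-09, edgeR). Near-identical copies can share reads, so the split of counts among them is uncertain.

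**Figure D3:**
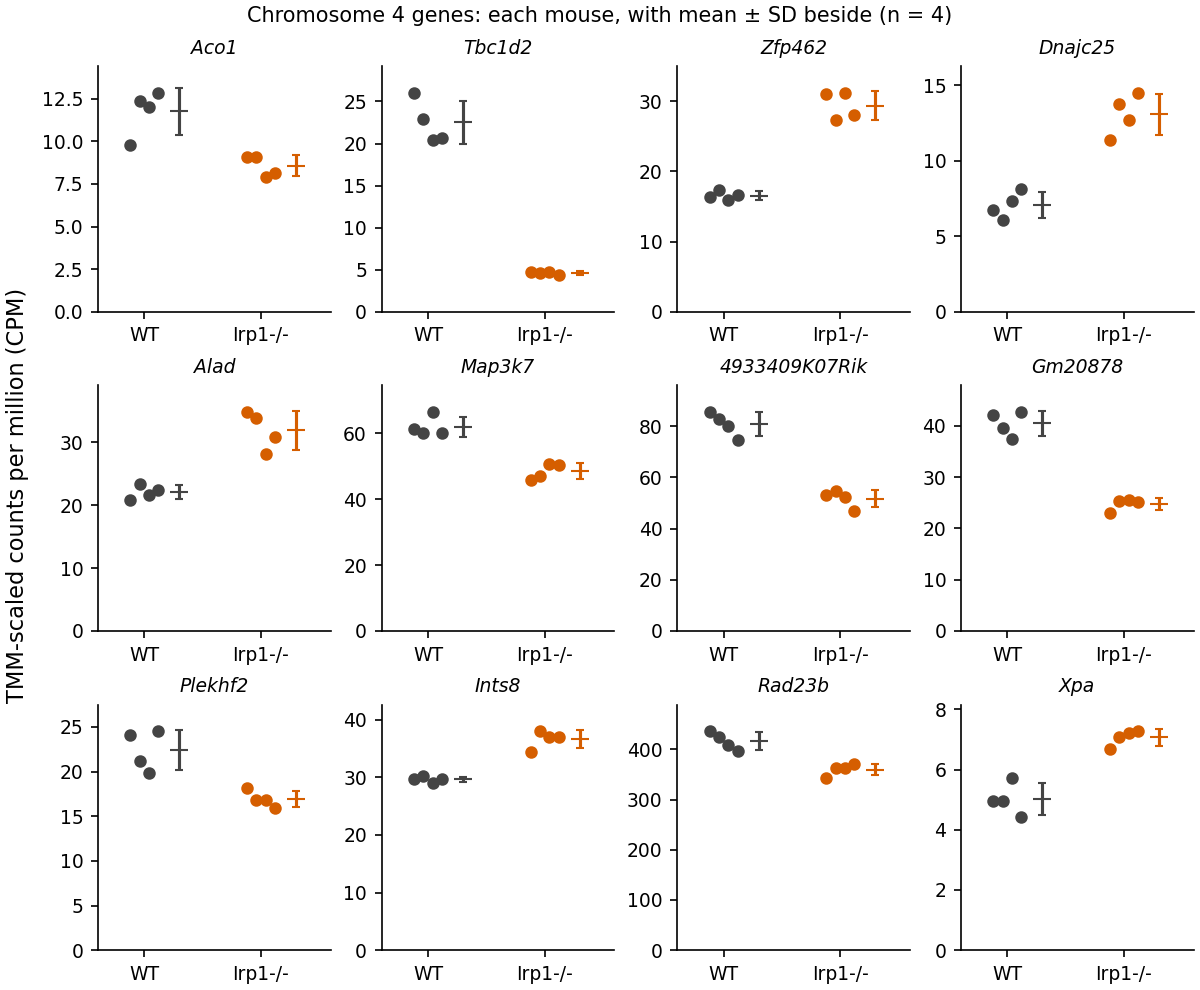
Each panel shows 1 gene of chromosome 4 in CPM (axis from 0), with a dot for each mouse and, beside the dots, the mean and SD of the 4 WT or 4 Irp1-/- mice. In all 12 genes the Irp1-/- dots lie on one side of the WT dots, narrowly so for Aco1 (9.10 CPM at most in Irp1-/-, 9.76 CPM at least in WT) and widely for Tbc1d2 and Zfp462.

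Of the genes not placed on chromosome 4, 138 were called, 80 higher (0.534%) and 58 lower (0.387%). In 129 of them the groups did not overlap, against 6.56% of all such genes tested. Here too the calls were made on these same values, which favours separation. An absolute log2 fold change over 1 was reached by 9 called genes in the whole comparison (0.0562%), of which 4 lay on chromosome 4. The other 5 were Tcte3, Dynlt1b, Tmem181b-ps, Hist1h2ag and LOC100040786, and the chromosome of LOC100040786 is not known. Tcte3 and Dynlt1b belong to families of near-identical copies on chromosome 17. Tmem181b-ps lies on that chromosome too, and its sequence was not compared with those of other Tmem181 genes.

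Tcte3 encodes a light chain of the Tctex type that is carried by axonemal dynein, the motor of the sperm tail. It had 387, 306, 359.8 and 369.9 CPM in Irp1-/- and 160.1, 169.7, 187 and 189.7 CPM in WT replicates (log2 fold change 1.01, SE 0.081, adjusted p = 3.47e-04, edgeR), and the groups were far apart. In Irp2_KO testes it had 211 ± 6.77 CPM (SD, n = 3), also above the WT level (log2 fold change 0.26, adjusted p = 0.0137, edgeR). The annotation places the copies Gm3417 and Gm3448 beside it, and the coding sequence of Gm3448 is identical to that of Tcte3 over 576 bases. Gm3417 differs from both at 1 base. To show how little separates these genes, bases 328 to 417 of each coding sequence (GENCODE M21, GRCm38, strand of the gene) are given with the differing position in capitals.
Tcte3: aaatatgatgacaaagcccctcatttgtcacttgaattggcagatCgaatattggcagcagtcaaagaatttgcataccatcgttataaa
Gm3448: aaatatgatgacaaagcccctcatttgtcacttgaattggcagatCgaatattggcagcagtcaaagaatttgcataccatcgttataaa
Gm3417: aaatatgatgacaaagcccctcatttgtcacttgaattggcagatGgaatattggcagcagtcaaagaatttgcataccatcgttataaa
Tcte3 lies at chr17:15027154-15041559, Gm3448 at chr17:14995783-15010184 and Gm3417 at chr17:14964189-14978812. Of all runs of 50 bases in the coding sequence of Tcte3, 90.5% also occur in Gm3417 and 100% in Gm3448. Reads outside the coding sequence were not compared, and how reads were divided among the copies is not known. Gm3448 and Gm3417 carried almost equal counts, 846 ± 25.1 and 846 ± 25.5 CPM in Irp1-/- against 699.7 ± 28.3 and 699.9 ± 28.7 CPM in WT (SD, n = 4; log2 fold change 0.27 and 0.27, adjusted p = 7.03e-05 and 7.47e-05, edgeR). The low-level neighbour Gm3435 had 8.55 to 11.4 against 4.91 to 6.02 CPM (log2 fold change 0.79, adjusted p = 1.42e-04, edgeR). Summed over Tcte3, Gm3417, Gm3435 and Gm3448, the level was 2058 ± 48.6 CPM in Irp1-/- and 1582 ± 45.6 CPM in WT (SD, n = 4 each). The family was thus at 130.1% of WT, with 2029 to 2130.2 CPM in Irp1-/- samples and 1543 to 1647 CPM in WT samples. The sum was chosen after the single values had been seen and carries no test. It does not depend on how reads were divided among these 4 genes. Whether shared reads were dropped, or given to other genes, is not known.

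Dynlt1b, a light chain of cytoplasmic dynein, moved the opposite way. It had 33.5, 30.7, 26.5 and 31.7 CPM in Irp1-/- and 206, 304, 281 and 208 CPM in WT replicates (log2 fold change -3.03, SE 0.18, adjusted p = 0.00105, edgeR). The WT samples were themselves spread, but the lowest of them stood far above every Irp1-/- sample. Its coding sequence of 342 bases differs at 1 base from those of Dynlt1a, Dynlt1c and Dynlt1f, which are identical to each other. The first 90 bases show this position, in capitals.
Dynlt1b: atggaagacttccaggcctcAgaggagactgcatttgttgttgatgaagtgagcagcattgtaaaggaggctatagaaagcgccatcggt
Dynlt1a: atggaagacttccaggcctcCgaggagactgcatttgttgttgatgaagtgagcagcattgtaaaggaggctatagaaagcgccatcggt
The other 3 copies were not called. Dynlt1a had 72.2 ± 1.19 against 69.9 ± 3.76 CPM (adjusted p = 0.738), Dynlt1c 347 ± 11.6 against 376 ± 16.3 CPM (adjusted p = 0.183) and Dynlt1f 26.4 ± 3.27 against 29.04 ± 1.78 CPM (adjusted p = 0.482, edgeR). Summed over all 4 genes the level was 476 ± 13.4 CPM in Irp1-/- and 725 ± 56.8 CPM in WT (SD, n = 4 each), or 65.7% of WT. Without Dynlt1b the sum was 446 ± 11.9 against 475 ± 21.6 CPM, or 93.9%. Tmem181b-ps, a transcribed pseudogene whose annotated span overlaps that of Dynlt1b (chr17:6429530-6440500 and chr17:6439002-6450994), had 1.72, 1.61, 1.29 and 1.70 CPM in Irp1-/- and 15.5, 18.6, 21.6 and 14.6 CPM in WT (log2 fold change -3.47, SE 0.14, adjusted p = 5.33e-15, edgeR). Reads from the shared span may have been counted for either gene. Tmem181a and Tmem181c-ps, on the same chromosome, were not called (adjusted p = 0.353 and 0.510, edgeR). In Irp2_KO testes Dynlt1b had 342 ± 66.3 CPM and Tmem181b-ps 23.9 ± 3.87 CPM (SD, n = 3 each).

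Of the last pair, Hist1h2ag, a histone H2A gene, had 0.377 to 0.887 against 1.10 to 2.34 CPM (log2 fold change -1.35, adjusted p = 0.0105, edgeR). LOC100040786, which could not be given a position, had 0.939 to 1.70 against 4.30 to 4.91 CPM (log2 fold change -1.87, adjusted p = 7.76e-08, edgeR). Both are of low level, and in each the Irp1-/- samples lay below the WT samples. In Irp2_KO testes Hist1h2ag had 0.900 ± 0.404 CPM (log2 fold change -0.98, adjusted p = 0.157, edgeR, against WT) and LOC100040786 6.93 ± 0.878 CPM (log2 fold change 0.58, adjusted p = 0.0184, edgeR), so the latter was higher there than in WT.

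Outside these families and the sex chromosomes, the lower genes named by smallest p elsewhere included Plekhh2, Cacnb1, 1700008P02Rik and Rtf1. Plekhh2, an actin-associated protein, had 124, 145, 137 and 130.1 CPM in Irp1-/- and 173, 172, 172 and 166 CPM in WT replicates (log2 fold change -0.35, SE 0.044, adjusted p = 1.48e-05, edgeR). Cacnb1, a beta subunit of voltage-gated calcium channels, had 84.4, 85.2, 78.8 and 79.9 CPM against 103, 105, 101 and 102 CPM (log2 fold change -0.32, SE 0.041, adjusted p = 2.18e-05, edgeR). In both genes all Irp1-/- samples were below all WT samples. Rtf1, a factor of transcription elongation, fell from 76.1 ± 2.42 to 61.98 ± 2.17 CPM (log2 fold change -0.29, adjusted p = 2.77e-04, edgeR), and 1700008P02Rik from 46.8 ± 3.31 to 35.5 ± 2.73 CPM (log2 fold change -0.40, adjusted p = 2.23e-04, edgeR). In Irp2_KO testes Plekhh2 had 183 ± 7.37 CPM, Cacnb1 86.5 ± 12.95 CPM, Rtf1 73.2 ± 3.78 CPM and 1700008P02Rik 34.3 ± 5.00 CPM (SD, n = 3 each). Against WT, 1700008P02Rik was thus lower there as well (log2 fold change -0.44, adjusted p = 0.0129, edgeR). Plekhh2, Cacnb1 and Rtf1 did not pass that test. Among genes that rose, Ifltd1, which holds a lamin tail domain, had 61.5 to 65.8 against 48.2 to 53.3 CPM (log2 fold change 0.30, adjusted p = 4.59e-04, edgeR) and Gm5800 34.3 to 35.5 against 25.2 to 29.4 CPM (log2 fold change 0.36, adjusted p = 3.97e-04, edgeR).

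**Figure D4:**
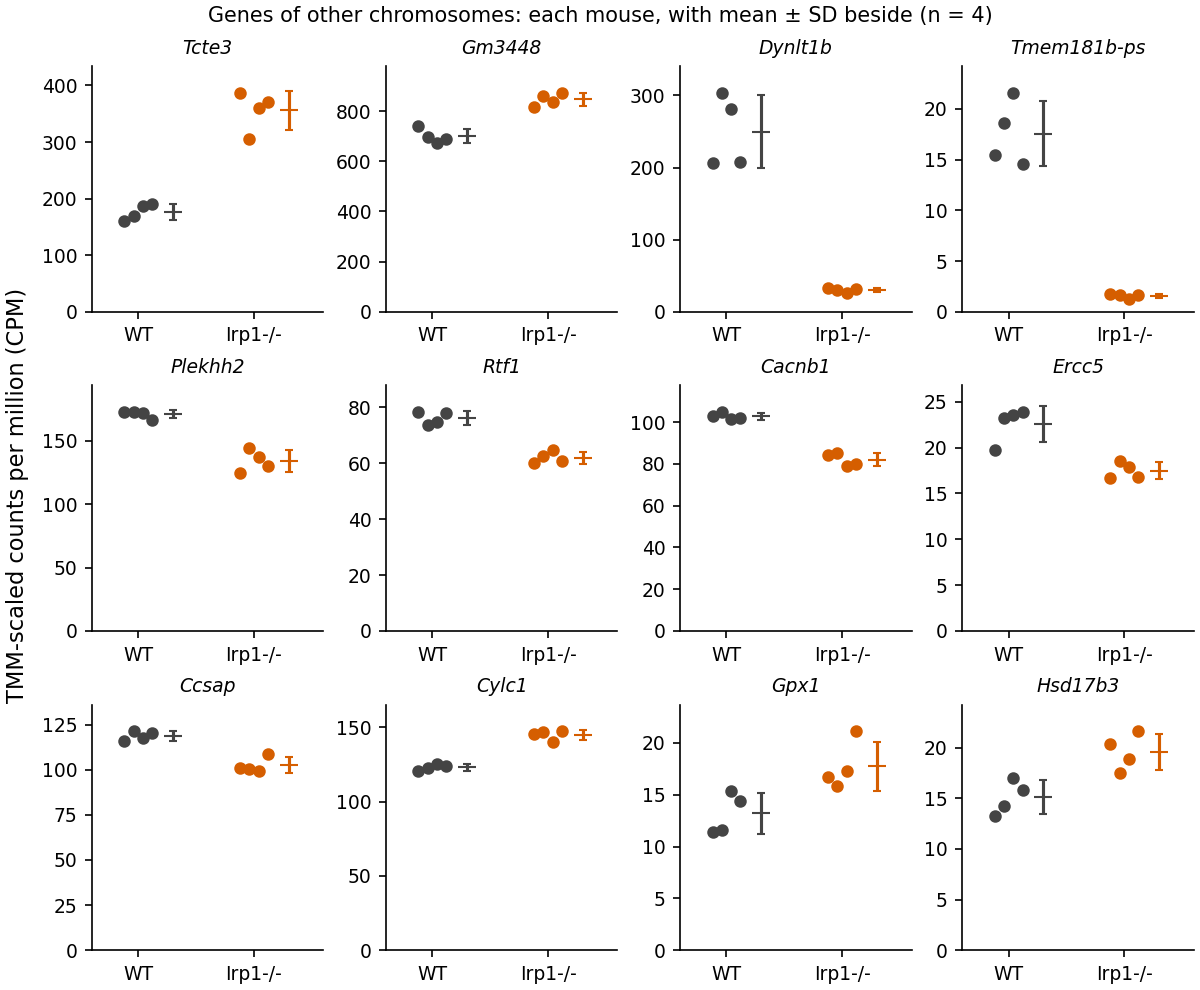
Each panel shows 1 gene of another chromosome in CPM (axis from 0), with a dot for each mouse and the mean and SD of the 4 WT or 4 Irp1-/- mice beside the dots. Dynlt1b and Tmem181b-ps are nearly lost in Irp1-/-, Tcte3 is at 201% of WT, and in every panel the Irp1-/- dots lie on one side of the WT dots, narrowly so for Gpx1 (15.8 CPM at least in Irp1-/-, 15.4 CPM at most in WT).

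Calls on the sex chromosomes had opposite directions. On the X chromosome 18 of the 19 called genes were higher in Irp1-/- testes, 516 of the 694 tested genes had a positive log2 fold change, and their median was 0.10, against -0.00079 over all tested genes. Cylc1, a cytoskeletal protein of the sperm head, had 146, 147, 140.1 and 148 CPM in Irp1-/- and 120.3, 123, 125 and 124 CPM in WT replicates, without overlap (log2 fold change 0.24, SE 0.039, adjusted p = 8.44e-04, edgeR). Other X-linked genes that rose, chosen after their values had been seen, were Ctag2 (log2 fold change 0.28), Vsig1 (0.23), Tcp11x2 (0.23) and Cldn34b3 (0.58). The X-linked gene that fell was Pcsk1n (log2 fold change -0.38, adjusted p = 0.0404, edgeR), a call kept only in the fit without Irp1-/- replicate 2 among those without 1 sample (adjusted p up to 0.155). The summed level of all tested X genes was 13352, 13411, 12659 and 13413 CPM in Irp1-/- replicates and 12201, 12319, 12539 and 12666 CPM in WT replicates. Irp1-/- replicate 6 thus lay within the WT range and the other 3 above it. The number of X calls was 6 without Irp1-/- replicate 1, 12 without Irp1-/- replicate 2, 11 without WT replicate 2, 10 without WT replicate 3 and 12 without WT replicate 4, and the median over the X chromosome lay between 0.090 and 0.12 in the fits without 1 sample. The Y chromosome had 3 calls, all lower, in the multicopy genes Sly, Ssty2 and Gm21943. Sly, a spermatid gene known to keep sex-linked genes repressed after meiosis, had 58.7, 64.2, 61.7 and 64.2 CPM in Irp1-/- and 90.2, 83.7, 82.1 and 82.9 CPM in WT replicates (log2 fold change -0.45, SE 0.046, adjusted p = 3.17e-07, edgeR). Its copies share sequence, so the counts are those of a family. In Irp2_KO against WT testes, which shares the WT samples, 38 of 694 X genes were called (5.48%), all of them lower, and Cylc1 had 95.8 ± 6.51 CPM (SD, n = 3; log2 fold change -0.36, adjusted p = 1.61e-04, edgeR). In that comparison Sly had 87.2 ± 8.19 CPM in Irp2_KO testes (SD, n = 3; log2 fold change 0.040, adjusted p = 0.923, edgeR). Ssty2 and Gm21943 had log2 fold changes of -0.19 and 0.50 there (adjusted p = 0.656 and 0.0137, edgeR). A link between Sly and the X-linked values was not tested.

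Genes of the processes in which Irp1 takes part, of oxidative defence, of DNA repair and of the testis were grouped into lists, and each list was described by its counts and its median log2 fold change, with no test of a list. For reference, 1.02% of all tested genes were called, and their median log2 fold change was -0.00079. Of the 23 tested genes of iron regulation and iron handling, Aco1 was the only one called, and the median log2 fold change was -0.016. Tfrc, the transferrin receptor, had 17.1 ± 1.49 CPM against 17.3 ± 1.37 CPM in WT (adjusted p = 0.964). The log2 fold change was 0.10 for the ferritin heavy chain Fth1 (adjusted p = 0.289), 0.21 for the light chain Ftl1 (0.290) and 0.17 for the iron exporter Slc40a1 (0.823, edgeR). Heph, a ferroxidase that aids iron export, had the largest log2 fold change of the list, 0.97, at 1.07 to 1.52 against 0.502 to 0.883 CPM (adjusted p = 0.0733). None of these passed the test. Ireb2 had 137 ± 8.71 CPM against 139 ± 5.92 CPM (adjusted p = 0.882, edgeR). Epas1, a hypoxia factor whose mRNA carries an iron-responsive element, had 34.9 ± 3.03 CPM against 36.7 ± 1.24 CPM (adjusted p = 0.684, edgeR). These are mRNA levels, and translational effects of the iron-responsive elements are not measured here.

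In citrate metabolism Aco1 was again the only call among 21 genes, with a median of -0.0091. In heme synthesis and breakdown 1 of 14 genes was called, the chromosome 4 gene Alad, with a median of 0.051. Alas1 and Hmox1, the first enzymes of heme synthesis and breakdown, were both near 0 on the log2 scale, at 0.02 (adjusted p = 0.937) and 0.02 (0.964, edgeR). Among 27 genes of iron-sulfur cluster assembly 0 were called, with a median of 0.0050, and Fdxr, which passes electrons to ferredoxin, had the smallest p (log2 fold change 0.25, adjusted p = 0.137, edgeR). Among 18 hypoxia-inducible factor targets 0 were called, with a median of 0.022. There P4ha2, a collagen prolyl hydroxylase, had the smallest p (adjusted p = 0.353, log2 fold change 0.25, edgeR).

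Among 23 genes that detoxify peroxide and superoxide 18 had positive log2 fold changes, with a median of 0.10, and 1 was called. This was Gpx1, a glutathione peroxidase, with 16.7, 15.8, 17.3 and 21.2 CPM in Irp1-/- and 11.4, 11.6, 15.4 and 14.4 CPM in WT (log2 fold change 0.42, SE 0.10, adjusted p = 0.0473, edgeR). Its groups stood next to each other and the call was kept in the fits without Irp1-/- replicate 2 or WT replicate 3 and lost in the other 6 fits without 1 sample, with an adjusted p of up to 0.163 (edgeR). Of 23 glutathione and NRF2 genes 18 were positive, with a median of 0.16, and none was called. Gstm7, a glutathione transferase with the smallest p of that list, had 46.04 to 50.03 against 40.8 to 45.2 CPM (log2 fold change 0.16, adjusted p = 0.123, edgeR). The summed level of the glutathione list was 2456 to 2704 CPM in Irp1-/- and 2396 to 2572 CPM in WT samples, so the groups overlapped. That of the peroxide and superoxide list was 2423 to 2643 CPM in Irp1-/- samples. Its WT range, 2489 to 2561 CPM, lay within the Irp1-/- range. Leydig, Sertoli and red blood cell markers, given below, also had positive medians, and their part in the values of both oxidative defence lists was not tested.

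Genes of base and nucleotide excision repair leaned the other way. Of 39 tested, 34 had a negative log2 fold change, with a median of -0.054 (-0.00079 over all tested genes), and 3 were called, against 1.02% of all tested genes. The summed level was 2619 to 2661 CPM in Irp1-/- and 2720.0 to 2823 CPM in WT samples, with no overlap. Without the genes of chromosome 4 the 35 others summed to 2234 to 2276 CPM and 2289 to 2377 CPM. Among the 3 calls only Ercc5, the endonuclease that cuts on the 3′ side of the lesion, lies outside chromosome 4. It had 16.6, 18.6, 17.9 and 16.8 CPM in Irp1-/- and 19.7, 23.2, 23.6 and 23.9 CPM in WT (log2 fold change -0.37, SE 0.072, adjusted p = 0.00822, edgeR), and its call was lost without Irp1-/- replicate 1 (adjusted p = 0.0551). Rad23b and Xpa, described above, moved in opposite directions. No gene was called among 36 of double-strand break repair and checkpoint (26 negative, median -0.045) or 33 of meiotic prophase (23 negative, median -0.059). Their summed levels did not overlap either, at 1387 to 1433 CPM in Irp1-/- against 1437 to 1469 CPM in WT samples for the former list, and 2603 to 2643 CPM against 2672 to 2715 CPM for the latter. The part of cell type content in the values of these lists was not tested, and the spermatogonia and spermatocyte markers given below also had negative medians. The smallest p in these lists belonged to the checkpoint kinase Atr (log2 fold change -0.11, adjusted p = 0.197) and the synaptonemal complex gene Syce2 (log2 fold change -0.13, adjusted p = 0.172, edgeR). In the mitotic cell cycle list 29 of 43 genes were negative, with a median of -0.036. Its summed level was 2314 to 2363 CPM in Irp1-/- and 2348 to 2478 CPM in WT samples, so the groups overlapped. The list had 1 called gene. It was Ccsap, which binds centrioles and the spindle, at 101, 100.3, 99.4 and 109 CPM in Irp1-/- and 116, 121, 117 and 120.0 CPM in WT (log2 fold change -0.21, SE 0.041, adjusted p = 0.00651, edgeR).

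Of 15 genes of steroidogenesis 13 were positive, with a median of 0.17. Hsd17b3, which makes testosterone in the last step of its synthesis, was the call, with 20.3, 17.5, 18.9 and 21.7 CPM in Irp1-/- and 13.2, 14.3, 17.02 and 15.8 CPM in WT (log2 fold change 0.37, SE 0.083, adjusted p = 0.0232, edgeR). Leaving out replicate 1 or 7 of Irp1-/- or replicate 1 or 2 of WT ended the call, with an adjusted p of up to 0.124. Hsd3b1, which acts earlier in the pathway, had 52.8, 47.5, 47.8 and 44.9 against 29.8, 35.8, 36.96 and 42.6 CPM and missed the threshold (log2 fold change 0.41, SE 0.090, adjusted p = 0.0570, edgeR; adjusted p = 2.58e-04 in DESeq2). Cyp11a1 and Cyp17a1, other enzymes of the pathway, differed by 0.68 (adjusted p = 0.562) and 0.65 (0.558, edgeR) on the log2 scale. Leydig cells, which make these enzymes, had 8 of 8 markers tested, 7 of them positive, with a median of 0.39. Their summed level was 1023 to 1218 CPM in Irp1-/- and 761 to 1097 CPM in WT samples, and the part of Leydig cell content in the steroidogenic values was not tested.

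No marker gene of any cell type was called. Sertoli cell markers were positive in 12 of 14, with a median of 0.10 and a summed level of 818 to 938 CPM in Irp1-/- and 792 to 822 CPM in WT samples. Their smallest p belonged to Defb19, a beta-defensin of Sertoli cells (log2 fold change 0.20, adjusted p = 0.0599, edgeR). Spermatogonia and spermatocyte markers were negative in 9 of 11 and 10 of 12, with medians of -0.037 and -0.062. Summed spermatocyte markers ranged from 2989 to 3142 CPM in Irp1-/- samples and from 3109 to 3161 CPM in WT samples. Round spermatid markers were positive in 9 of 12 and elongating spermatid markers in 4 of 12, with medians of 0.030 and -0.054. Sohlh1, Mybl1, Sun5 and Prm2 had the smallest p of these 4 germ cell lists, and none passed the test. Their log2 fold changes were -0.32, -0.13, 0.16 and -0.10, at adjusted p values of 0.489, 0.168, 0.113 and 0.268 (edgeR). Peritubular myoid, endothelial and macrophage markers had medians of 0.037, -0.023 and 0.017, led by Actg2, Tie1 and Mrc1 (adjusted p = 0.522, 0.592 and 0.181, edgeR). Red blood cell genes were positive in 4 of 4, with a median of 0.60, a summed level of 50.8 to 78.7 CPM in Irp1-/- and 37.7 to 54.2 CPM in WT samples, and Hba-a1 at 19.1 to 30.4 against 7.39 to 19.9 CPM. The part of blood left in the tissue was not tested for any result here. Of 9 epididymis genes 1 was tested, Rnase10, at 2.73 to 4.38 against 2.98 to 3.66 CPM, and the other 8 did not pass the filter on low counts.

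**Figure D5:**
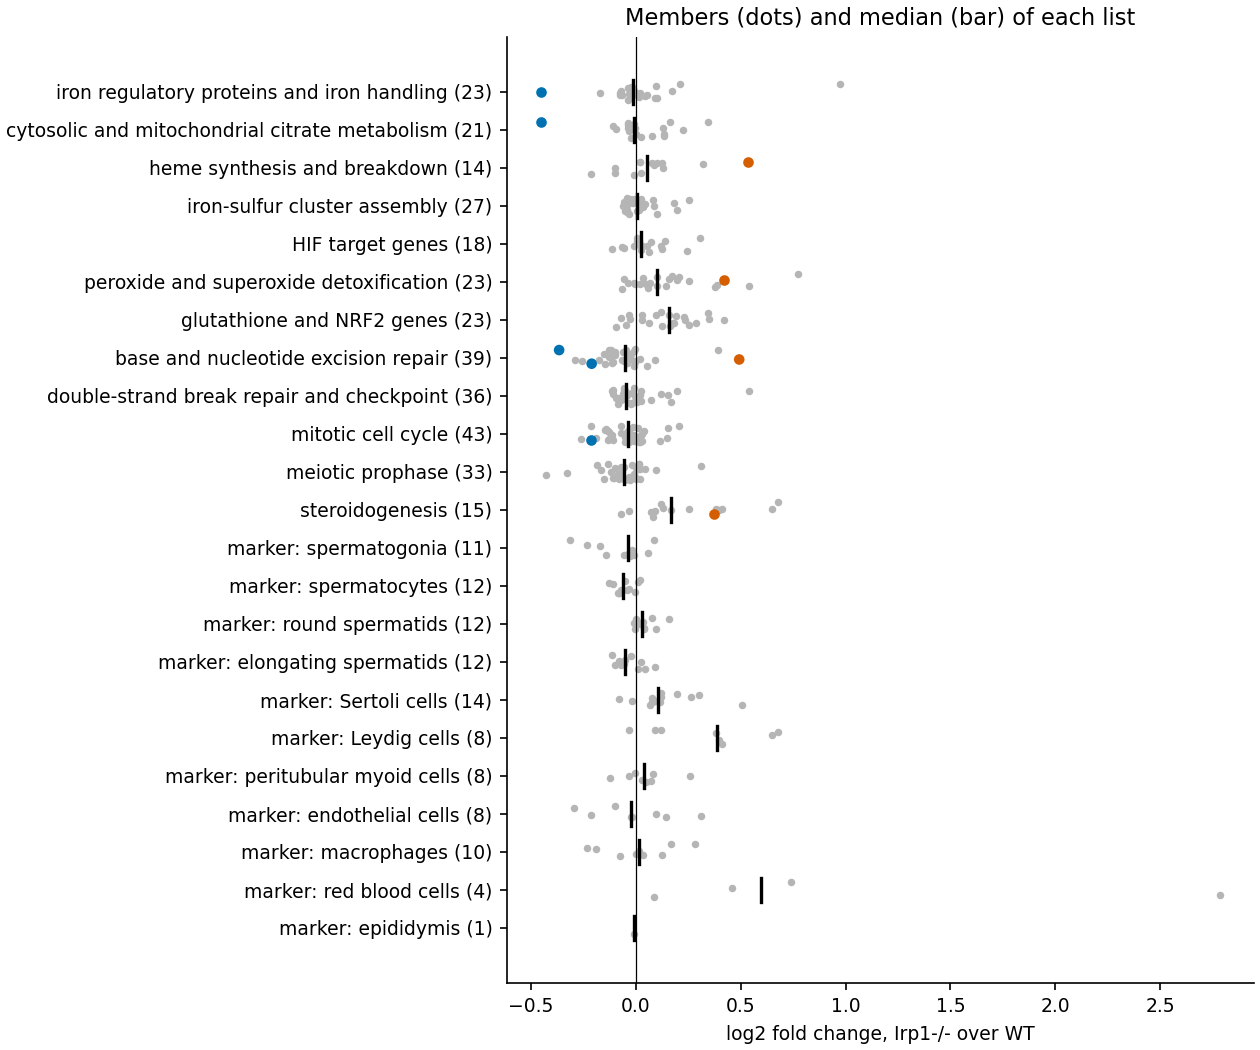
Each row is a gene list with its number of tested genes in brackets. Dots are members by log2 fold change in Irp1-/- over WT testes, coloured where the adjusted p is under 0.05 (orange higher, blue lower), and the bar is the median. The medians of red blood cell (0.60), Leydig cell (0.39), steroidogenesis (0.17) and glutathione genes (0.16) lie to the right of 0, and those of spermatocyte (-0.062), meiotic prophase (-0.059), elongating spermatid (-0.054) and excision repair genes (-0.054) to the left. Calls are rare, and the red blood cell gene Hbb-bt, farthest right at 2.78, has an adjusted p of 0.532.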

How the data were processed

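Bulk mRNA of whole decapsulated testis was sequenced from 4 Irp1-/-, 4 WT and 3 Irp2_KO mice, with 1 library per mouse. The deposited table holds whole-number read counts per gene, which the authors made with an nf-core RNA-seq pipeline at its standard settings on mm10 with the iGenomes annotation, from libraries of a stranded mRNA kit. The submitters' processing notes name bcl2fastq 2.20.0.422 and DESeq2. The tool that counted reads, and how it treated reads shared by several genes, is not given in the sources used here, so values of near-identical or overlapping genes are uncertain. The near-equal values of Gm3417 and Gm3448 leave it unknown whether the numbers are counts of whole reads or rounded estimated counts, and they were used as counts.

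From these counts, genes with low counts were removed with filterByExpr, libraries were scaled by TMM, and the 4 Irp1-/- and 4 WT samples were compared with the quasi-likelihood test of edgeR 4.0.16 in R 4.3.3 with robust dispersion. Benjamini-Hochberg adjustment ran over all 16002 tested genes, and an adjusted p under 0.05 was called. SE is the size of the log2 fold change divided by the square root of the F statistic. CPM values were scaled over the 8 samples, and those of Irp2_KO testes over all 11. Irp2_KO was compared with WT and with Irp1-/- in fits of their own 2 groups. Replicates are separate mice by the labels.

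Gene positions came from the RefSeq annotation of GRCm38.p6, with 23194 genes matched by symbol, 1096 by an older symbol, 13 ambiguous and 108 not matched. Genes that the annotation places on unlocalized sequence were given a chromosome but no position. Coding sequences came from GENCODE M21.

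Genes named were Aco1, every called gene with an absolute log2 fold change over 1, of the other called genes without overlap of the groups the 5 of smallest p on chromosome 4 and the 6 elsewhere in each direction, every called gene of the lists, and the gene of smallest p of each list without a call. Heph and Hbb-bt were named for the size of their log2 fold change. The other genes named from a list are well-known members of it, shown whatever their value. A gene that the rule also names is not reported here. Samples, lists and genes were chosen with earlier results of these data known.

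Alternatives were RLE scaling, DESeq2 1.42.0, other count filters, a fit of all 11 samples, a replicate block and the removal of each sample. On simulated counts with 200 of 15875 genes changed by a log2 fold change of 1, the test recovered 99.5% of them and 3.40% of its calls were false. The changed genes were drawn only from those of higher mean CPM. Most called genes in the data changed by less, and recovery of smaller changes or of genes of low level was not measured. Intervals cover counting error only.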

Additional observations from a re-analysis of the deposited data

Results flagged for a closer look

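For each of the 54 named genes the 4 Irp1-/- and the 4 WT values were searched for a sample whose gap to the nearest of the others exceeded Dixon's 95% critical share of the whole range. This was so in 11 of 108 groups, and chance gives about 5.4 for independent groups of normal values. Many of these genes were chosen by small p in these same samples, and some are near-identical copies. A group with 1 count in 1 library and 0 in the others, as for Gm12505, always passes. The excess was therefore not interpreted. In Irp1-/- replicate 1, Fabp3 stood high at 82.1 CPM (the other 3 at 75.4 to 76.3), Ifltd1 stood high at 65.8 CPM (61.5 to 62.2) and Gm20878 stood low at 23 CPM (25.2 to 25.5). In Irp1-/- replicate 6, Fdxr was low at 20.9 CPM (22.5 to 22.7) and Actg2 was low at 232 CPM (249.96 to 251). In Irp1-/- replicate 7, Gm12505 had its single count, 0.0628 CPM, against 0 in the others. In the same sample Gm3435 was high at 11.4 CPM (8.55 to 8.83), Ccsap at 109 CPM (99.4 to 101) and Mrc1 at 40.7 CPM (35.7 to 36.4), while P4ha2 was low at 6.03 CPM (6.87 to 7.04). In WT replicate 4, Plekhh2 was low at 166 CPM (172 to 173).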

How the results depend on the processing

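All 164 called genes kept their direction in every alternative in which they were tested. The numbers called were 167 with RLE scaling, 172 in DESeq2, 209 without a count filter, 178 with at least 10 counts in every sample and 120 with all 11 samples in the fit, and 163, 142, 160, 160 and 118 of the 164 were called again. An absolute log2 fold change over 1 was reached by 6 called genes in DESeq2 and 6 with at least 10 counts in every sample. Without a count filter the number was 11. Gm12505, 4930412C18Rik and Hist1h2ag had no adjusted p in DESeq2. With 1 sample left out the number called was 55 to 216, that on chromosome 4 was 17 to 34, that elsewhere 38 to 188, and that with an absolute log2 fold change over 1 was 9 to 15. Within 40 Mb of Aco1 these fits called 16 to 25 genes, and beyond 0 to 8. Rnase10, at 3 to 4 CPM, had a log2 fold change of -0.17 to 0.085 with 1 sample left out and changed sign without Irp1-/- replicate 2 (0.085), Irp1-/- replicate 6 (0.071), WT replicate 1 (0.012) and WT replicate 2 (0.038). Fabp3, Gpx1 and Hsd17b3 lost their calls with all 11 samples in the fit. Irp1-/- replicate 6 is the only column whose name carries the letter R in place of L, the meaning of which is not given, and without it 102 genes were called.

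Replicate numbers 1 and 2 occur in both genotypes, but no label says that they pair mice, and same-numbered samples did not deviate together (correlations of 0.084 and 0.035). With the replicate number as a block 439 genes were called, 404 of them elsewhere than on chromosome 4 and 56 with an absolute log2 fold change over 1, and 103 of the 164 were called again. On chromosome 4 this fit called 23 genes within 40 Mb of Aco1 and 10 beyond. Aco1, Dynlt1b, Ercc5 and Xpa were not among these.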

Other observations

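Called genes outside chromosome 4 that lay within 1 Mb of another called gene were listed after the positions had been seen, and formed 12 groups. Besides the Tcte3 and Dynlt1b groups and the Y-linked pair of Sly and Gm21943, those with all members higher in Irp1-/- testes were Svs5 and Eppin, both genes of seminal fluid proteins, Slc1a5 and Dact3, Gm5591 and Gm21276, 4930433I11Rik and 1700110I07Rik, and the X-linked Tcp11x2 and Wbp5. In the other 4 groups 1 gene was higher and 1 lower, as in Gpx1 and Prkar2a.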
